A study of Mus musculus with 8 samples.

Results

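3T3-L1 cells, a mouse embryonic fibroblast line committed to the fat lineage, were grown either flat (2D) or as spheroids (3D), and the comparison described here is that of spheroid with flat culture after fat cell differentiation had been induced. It was defined by the sample labels and takes in 4 of the 8 RNA sequencing libraries of the series, 2 induced spheroid libraries and 2 induced flat libraries. Both induced groups received 10 µM troglitazone, an agonist of the nuclear receptor PPARγ, and 1 µg/ml insulin up to day 7, with 250 nM dexamethasone and 10 nM triiodothyronine present for the first 2 days. Spheroids formed in hanging drops of 28 µL seeded with 20000 cells. The other 4 libraries, 2 flat and 2 spheroid, came from day 7 cultures without these agents. They are used to ask whether a difference also occurred without induction. They also entered the filter on low counts, the scaling of all libraries and the fits of all 8 libraries. All groups are of a single established line with no other cell type added. The labels do not say whether the 2 samples of a group came from separate cultures. The p-values therefore measure only the spread between these samples, which may be technical.

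Fat cell differentiation in this line is driven by PPARγ and C/EBPα, which maintain each other's expression and switch on the genes of lipid uptake, triglyceride storage and adipokine secretion. Attachment, cell shape and the stiffness of the surroundings are known to act on the process, through actin and the cofactors YAP and TAZ among others, and the fibroblast matrix is remodelled while fat cells form. A spheroid differs from a flat layer in all of these, and in how oxygen, nutrients and the inducing agents reach the cells.

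The flat induced libraries held 11839374 and 15102312 counts and the spheroid induced libraries 14256216 and 16388954. Levels are given as CPM, counts relative to library size, scaled for library composition, in the order replicate 1 then replicate 2, and are not compared between genes. Of 49585 genes, 15255 passed the filter on low counts and were tested. A gene was called when its adjusted p was under 0.05 in the quasi-likelihood test of edgeR with Benjamini-Hochberg adjustment, fitted on the 4 libraries, and its change was at least 2-fold; ± marks the standard error of that model (n = 2 libraries a group).

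Spheroids and flat cultures differed in 771 called genes (5.05% of those tested), 353 higher in the spheroids (2.31%) and 418 lower (2.74%), around a median log2 fold change of 0.03 over all genes tested. The 2 flat libraries were much closer to each other than the 2 spheroid libraries: the biological coefficient of variation was 0.0473 in the flat and 0.327 in the spheroid group, and 535 against 2159 genes lay at least 2-fold apart between replicates. A fit without 1 spheroid library takes its spread from the flat pair alone, and a fit without 1 flat library from the spheroid pair alone. Counts of calls in such fits therefore do not measure how well a call holds across the spheroid replicates. Without spheroid replicate 1 the number of calls was 2992 and without spheroid replicate 2 it was 2512, while it was 58 without flat replicate 1 and 61 without flat replicate 2. Of the 771 calls, 649 held with either spheroid library left out and 53 with each of the 4 libraries left out in turn. Among the 146 called genes named in this text, those 53 include 25: Acsl1, Apln, Cavin2, Cebpa, Clec3b, Ear2, Egln3, Fmod, G0s2, Gpd1, Id3, Ifi27l2a, Igf2, Itgbl1, Lgals12, Mmp13, Mrap, Neat1, Ogn, Prelp, Rgcc, Rgs4, Saa3, Spaca6 and Tnn. The other named calls were lost when 1 of the flat libraries was left out, some also with a spheroid library left out, and none changed sign.

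Taken singly, each spheroid library was set against the mean of the same 2 flat libraries, so the 2 results share their controls. Spheroid replicate 1 was at least 2-fold higher in 1778 genes (11.7%) and lower in 1100 (7.21%), and replicate 2 was higher in 1625 (10.7%) and lower in 1716 (11.2%). Both were at least 2-fold higher in 1008 genes (6.61%) and both lower in 659 (4.32%). In 59 genes (0.387%) they lay at least 2-fold on opposite sides of the flat mean, 50 of them up in replicate 1 and down in replicate 2 (0.328%) and 9 the reverse (0.059%). Of the 771 calls, 652 were at least 2-fold the same way in each spheroid library alone (4.27% of all genes). Spheroid replicate 2 was at least 2-fold lower than replicate 1 in 1478 genes (9.69%) and at least 2-fold higher in 681 (4.46%). Where the spheroid replicates lie apart is described with the interferon, cell cycle and collagen genes below.

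**Figure D1:**
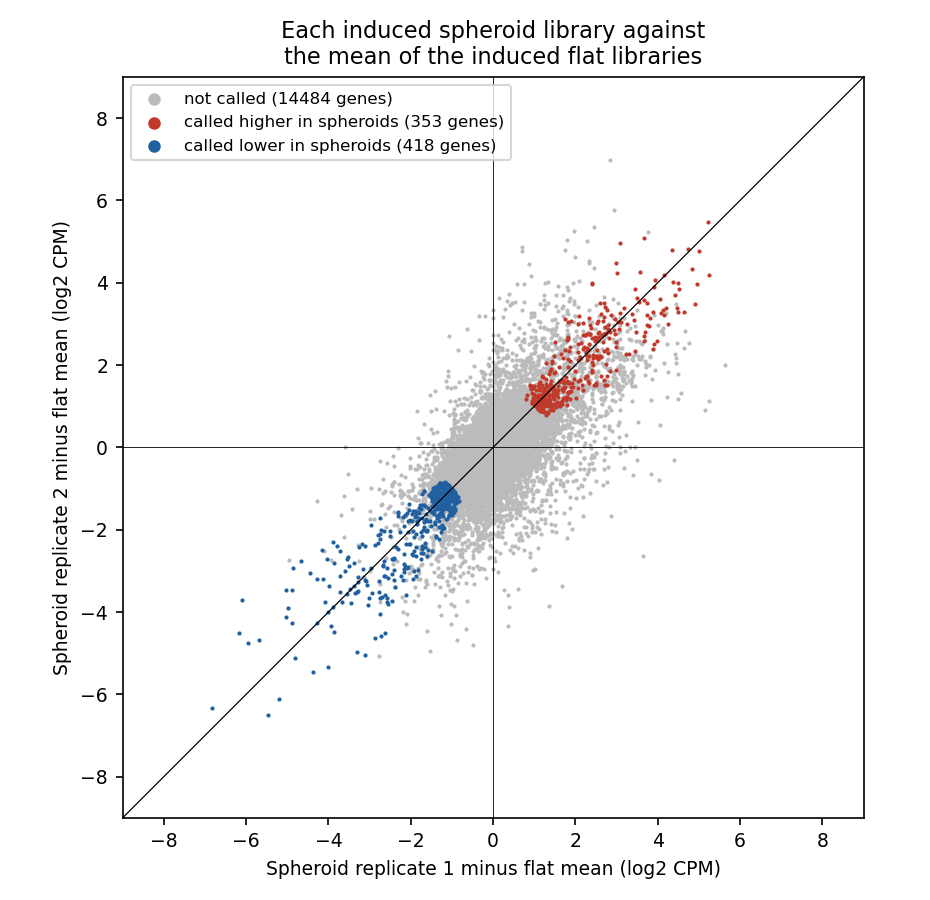
Each point is 1 of the 15255 genes tested, placed by its log2 CPM difference from the mean of the 2 flat induced libraries in spheroid replicate 1 (horizontal axis) and in spheroid replicate 2 (vertical axis). The 353 genes called higher (red) and 418 called lower (blue) lie with both spheroid libraries on the same side of the flat mean, though some of them differ between the 2 by more than 2-fold, and genes not called are grey.

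Genes were grouped in 49 lists by function or cell type, with 875 tested members of which 46 were called higher and 91 lower (15.7% in all, beside 5.05% of all genes). These numbers were 4 and 13 without flat replicate 1, 6 and 13 without flat replicate 2, 113 and 227 without spheroid replicate 1, and 118 and 164 without spheroid replicate 2. The lists with the most members lower were the ribosomal proteins, the lipid droplet genes, the hypoxia-inducible genes and the cholesterol pathway, and the list with the most higher was that of the mitochondrially encoded genes. Each list count below is to be read beside the shares over all genes tested, 2.31% called higher and 2.74% lower. The lists were chosen with earlier results of these data known. A larger share of calls among their members than among all genes is therefore no evidence of its own.

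**Figure D2:**
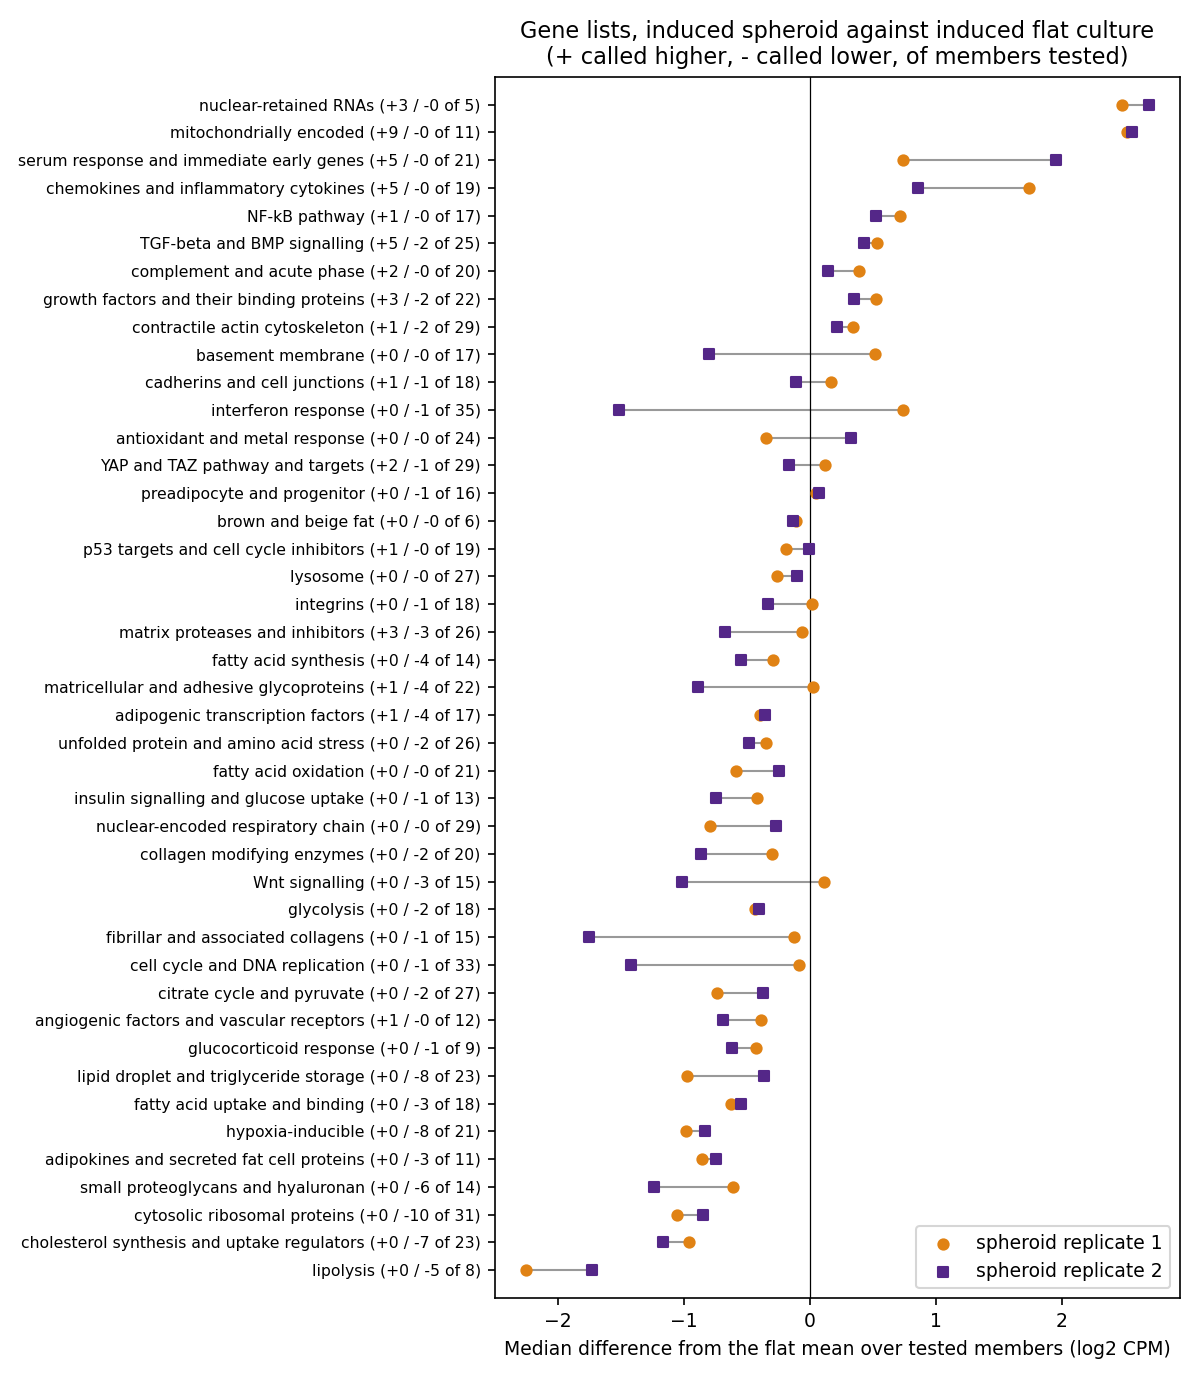
For each of the lists other than those of cell type markers, the points give the median over its tested members of the log2 CPM difference from the flat mean, in spheroid replicate 1 (orange circles) and spheroid replicate 2 (purple squares), with the members called higher and lower in brackets. Lipolysis lies lowest in replicate 1, and lowest but for the fibrillar collagens in replicate 2, with mitochondrially encoded and nuclear-retained RNAs highest, and the interferon, fibrillar collagen and cell cycle lists have the 2 libraries far apart.

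A share of the genes of the mature fat cell was lower in spheroids after induction. Over the 7 lists of fat cell function, from transcription factors to insulin signalling, 104 genes were tested, 28 were called lower and 1 higher, and 75 were not called. Of all genes tested, 2.74% were called lower and 2.31% higher. The difference from the flat mean was below 0 in 79 of the 104 in spheroid replicate 1, in 76 in replicate 2 and in 68 in both. Over all genes tested the median of this difference was 0.017 in replicate 1 and 0.0046 in replicate 2. In bulk RNA, fewer differentiated cells and less RNA per differentiated cell cannot be told apart.

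Among 17 adipogenic transcription factors tested, 4 were lower and 1 higher, with a median log2 fold change of -0.34. Cebpa, which encodes C/EBPα (chromosome 7, 35119293 to 35121928, GRCm38), stood at 203 and 189 CPM in the flat and 30.4 and 26.5 CPM in the spheroid libraries. Both spheroid libraries lay far below both flat ones, and the gene was 6.89-fold lower (log2 fold change -2.79 ± 0.16, edgeR adjusted p = 0.0105). Pparg (chromosome 6, 115360951 to 115490399), the gene of the receptor that troglitazone binds, was measured at 90.1 and 84.6 CPM in the flat and 40.6 and 38.9 CPM in the spheroid libraries. Its groups did not overlap either, which held for 31.2% of all tested genes in the lower direction, and its decrease was 2.2-fold (log2 fold change -1.14 ± 0.14, edgeR adjusted p = 0.0293). Klf15, a late factor of the programme, had 2.95 and 4.41 CPM flat and 0.474 and 0.293 CPM in spheroids (log2 fold change -3.25 ± 0.51, edgeR adjusted p = 0.0379). Ebf1, an early B cell factor that acts upstream of Pparg, had 90.2 and 89.3 CPM flat and 42.6 and 28.7 CPM in spheroids (log2 fold change -1.33 ± 0.23, edgeR adjusted p = 0.0422). Klf5, a Krüppel-like factor induced early in differentiation, was the member that rose, with 5.63 and 5.46 CPM flat and 15.2 and 23.2 CPM in spheroids (log2 fold change 1.79 ± 0.29, edgeR adjusted p = 0.0391). With group weights in limma-voom the call of Klf15 was lost (adjusted p = 0.122).

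Adipokines, the hormones that fat cells secrete, included some of the steepest decreases. Adipoq, the gene of adiponectin (chromosome 16, 23146536 to 23158028), stood at 242 and 229.6 CPM in the flat and 7.11 and 21.1 CPM in the spheroid libraries. Spheroid replicate 1 was the lower of the 2, both lay under both flat libraries, and the gene was 16.6-fold lower (log2 fold change -4.06 ± 0.53, edgeR adjusted p = 0.0319). Retn, which encodes resistin, had 77.9 and 61.3 CPM flat and 0.88 and 5.15 CPM in spheroids (log2 fold change -4.50 ± 0.73, edgeR adjusted p = 0.040), and with the replicate number as a block its adjusted p was 0.194. Apln, the gene of the peptide apelin, had 113 and 106 CPM flat and 20.6 and 11.7 CPM in spheroids (log2 fold change -2.77 ± 0.30, edgeR adjusted p = 0.0252). In all, 3 of the 11 adipokine genes tested were called, all lower, with a list median of -0.89. Cfd, the gene of adipsin, had low levels of 2.59 and 3.64 against 0.271 and 0.819 CPM and missed the threshold (log2 fold change -2.48 ± 0.62, edgeR adjusted p = 0.0734). Lep and Ucp1 had too few counts to be tested.

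Lipid droplet and triglyceride genes were lower in 8 of 23 tested members and higher in none, with medians of -0.98 in spheroid replicate 1 and -0.36 in replicate 2. Plin1, the perilipin that coats the droplet and guards it against lipases (chromosome 7, 79720218 to 79732903), had 254 and 255 CPM in the flat and 116 and 107 CPM in the spheroid libraries. Both spheroid libraries lay below both flat ones by a little over the 2-fold of the calling rule (2.28-fold lower, log2 fold change -1.19 ± 0.14, edgeR adjusted p = 0.0258). Cidec, whose product enlarges droplets by fusing them, changed far more, with 808 and 788 CPM in the flat and 27.1 and 105 CPM in the spheroid libraries, a difference of 12.1-fold (log2 fold change -3.60 ± 0.66, edgeR adjusted p = 0.0461). Gpd1, which makes the glycerol backbone of triglycerides, had 389 and 367 CPM flat and 5.96 and 13.9 CPM in spheroids (log2 fold change -5.24 ± 0.44, edgeR adjusted p = 0.018). G0s2, an inhibitor of the triglyceride lipase, had 127 and 110.3 CPM flat and 6.84 and 8.66 CPM in spheroids (log2 fold change -3.94 ± 0.20, edgeR adjusted p = 0.00971). Mrap, the accessory protein of the corticotropin receptor, had 25.3 and 23.2 CPM flat and 0.203 and 0.936 CPM in spheroids (log2 fold change -5.35 ± 0.57, edgeR adjusted p = 0.0243). Pck1, which supplies glycerol from small precursors, held 53 counts in the flat and 0 in the spheroid libraries, at least 22.1-fold lower when the group at 0 is set to a floor of 3 counts, and its call was lost with group weights (adjusted p = 0.0736). Dgat2 and Lpin1, of the last steps of triglyceride assembly, were the remaining members called, at log2 fold changes of -2.15 ± 0.35 and -1.33 ± 0.15. Gpd1 shares 13.0% of its exon bases with an antisense gene, and the strand setting of the counting is not known.

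Fatty acid uptake and binding genes split. Of 18 tested, 3 were lower: Acsl1, the long-chain acyl-CoA synthetase (1034 and 1021 CPM in the flat and 91.3 and 140.3 CPM in the spheroid libraries; log2 fold change -3.15 ± 0.26, edgeR adjusted p = 0.0178), Cavin2, a coat protein of caveolae (213 and 219.7 CPM flat and 18.5 and 32.7 CPM in spheroids; log2 fold change -3.08 ± 0.30, edgeR adjusted p = 0.0235), and Fabp5 (578 and 571 CPM flat and 147 and 166 CPM in spheroids; log2 fold change -1.88 ± 0.15, edgeR adjusted p = 0.0175). Other well-known fat cell genes were not called. Fabp4, the fatty acid binding protein of fat cells, stood at 4041 and 3613 CPM in the flat and 842 and 1743 CPM in the spheroid libraries, with both spheroid libraries lower and the more so in replicate 1 (log2 fold change -1.57 ± 0.38, edgeR adjusted p = 0.0711). Cd36, the fatty acid translocase, had 693 and 693 CPM flat and 518 and 638 CPM in spheroids (log2 fold change -0.26 ± 0.18, edgeR adjusted p = 0.362). Lpl, the lipase that frees fatty acids from lipoproteins, had 4414 and 4404 CPM flat and 2506 and 1881 CPM in spheroids (log2 fold change -1.01 ± 0.23, edgeR adjusted p = 0.0628). A p that misses the threshold does not show that these levels were equal.

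Lipolysis genes, which break stored triglyceride down or hold that process back, had the lowest list median of all, -1.87, with 5 of 8 members called lower and all 8 below 0 in both spheroid libraries. Lipe, hormone-sensitive lipase, had 226 and 226 CPM in the flat and 45.1 and 76.5 CPM in the spheroid libraries (log2 fold change -1.89 ± 0.28, edgeR adjusted p = 0.0353). Mgll, which completes the breakdown, had 10.6 and 9.87 CPM flat and 2.17 and 2.63 CPM in spheroids (log2 fold change -2.09 ± 0.27, edgeR adjusted p = 0.0305). Pde3b, through which insulin restrains it, had 72 and 66.8 CPM flat and 29.4 and 18.6 CPM in spheroids (log2 fold change -1.53 ± 0.26, edgeR adjusted p = 0.0418). The receptors Hcar1 and Hcar2, for lactate and for ketone bodies and niacin, were nearly silent in spheroids. Hcar2 had 108 counts in the flat and 2 in the spheroid libraries, a ratio of 67.5 with a 95% counting interval of 18.2 to 565. With group weights neither receptor was called (adjusted p = 0.113 and 0.0898). Lipe shares 15.6% of its exon bases with an antisense gene.

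Fatty acid synthesis was lower in 4 of 14 members with a median of -0.32. Scd1, the desaturase that makes oleate, had 462 and 432 CPM flat and 161 and 149 CPM in spheroids (log2 fold change -1.53 ± 0.14, edgeR adjusted p = 0.0199). Fads1, which desaturates polyunsaturated fatty acids, had 204 and 208 CPM flat and 91.4 and 88.2 CPM in spheroids (log2 fold change -1.20 ± 0.13, edgeR adjusted p = 0.0252). Slc25a1, the mitochondrial citrate carrier, had 122 and 122 CPM flat and 47.4 and 54.4 CPM in spheroids (log2 fold change -1.26 ± 0.14, edgeR adjusted p = 0.0258). Thrsp, a thyroid hormone responsive gene of lipogenic cells, had 16.6 and 18.5 CPM flat and 2.5 and 3.63 CPM in spheroids (log2 fold change -2.51 ± 0.28, edgeR adjusted p = 0.0257). In the list of insulin signalling and glucose uptake, of 13 members, Slc2a4, the insulin-regulated transporter GLUT4, was the only one called (11.8 and 12.6 CPM flat and 1.62 and 2.34 CPM in spheroids; log2 fold change -2.61 ± 0.30, edgeR adjusted p = 0.0259). None of 6 brown and beige fat genes tested was called. Among 16 preadipocyte and progenitor genes, with a median of -0.01, Thy1, a surface antigen of fibroblasts, was lower (308 and 332 CPM flat and 128 and 93.2 CPM in spheroids; log2 fold change -1.53 ± 0.20, edgeR adjusted p = 0.0322). Dlk1, whose product holds preadipocytes back from differentiating, had 1662 and 1637 CPM flat and 663 and 265 CPM in spheroids and was not called (log2 fold change -1.83 ± 0.45, edgeR adjusted p = 0.0719).

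**Figure D3:**
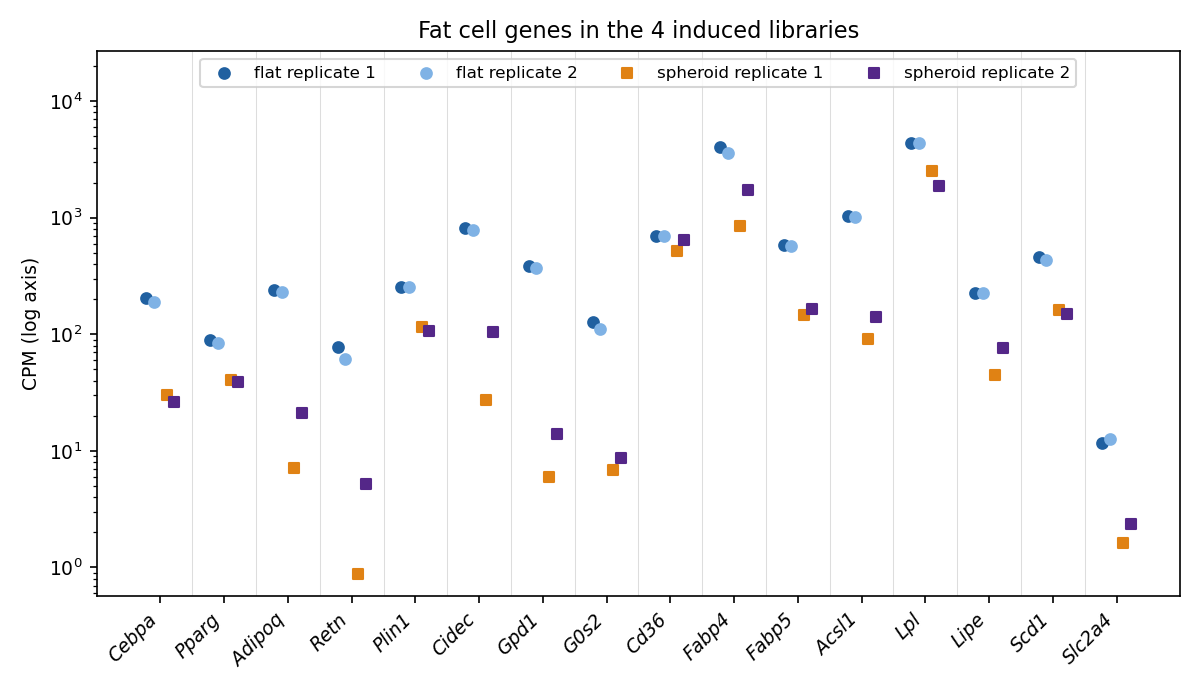
CPM on a log axis of 16 fat cell genes in the 2 flat (blue circles) and 2 spheroid (orange and purple squares) induced libraries. Both spheroid libraries lie under both flat libraries for each gene shown, from Cd36 at 518 and 638 CPM in spheroids, close to the flat level, to Retn at 0.880 and 5.15 CPM. The genes are a selection, and such a decrease without overlap held for 31.2% of all tested genes. Of the 104 genes of the fat cell lists, 68 lay below the flat mean in both spheroid libraries. Klf5 and Lcn2, higher in both, are not drawn.

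Spheroid and flat culture were also compared without induction. That comparison shares no library with the induced comparison, and the difference between the 2 was tested as an interaction on all 8 libraries. Without induction, in a fit of all 8 libraries, 827 genes were called higher in spheroids (5.42%) and 613 lower (4.02%). The same fit called 1059 genes higher and 833 lower with induction. The smaller counts of the 4-library fit given above are not comparable with these. The interaction called 58 genes (0.38%), 6 higher (0.0393%) and 52 lower (0.341%) in the induced than in the uninduced comparison. Of these, 30 were also called after induction (0.197%), 26 lower in spheroids (0.17%) and 4 higher (0.0262%). For 25 of the 26 and for 2 of the 4 the interaction had the same direction, the others being Ifi27l2a, Saa3 and Hp. Of the 104 fat cell genes, 11 were lower in the interaction and 0 higher, and 6 of these, Plin1, Acsl1, Cebpa, Scd1, Lipe and Gpd1, were also called lower in induced spheroids. Dgat1, Lcn2, Agt, Hk2 and Angptl4 were the other 5, named after their values were seen. For Cebpa the log2 difference between spheroid and flat culture was -0.32 ± 0.13 without induction and -2.79 ± 0.16 with it, an interaction of -2.46 ± 0.18 (edgeR adjusted p = 0.00316). For Acsl1 the uninduced levels were 15.7 and 15.7 CPM flat and 25.3 and 29.7 CPM in spheroids, higher in the spheroids, so that the direction was opposite to that after induction (interaction -3.96 ± 0.29, edgeR adjusted p = 0.00316). Scd1 showed the same crossing, with an uninduced log2 difference of 0.64 ± 0.10 (interaction -2.17 ± 0.14, edgeR adjusted p = 0.00316). Plin1 held 1 count in the flat and 190 in the spheroid uninduced libraries, a ratio of 232 with a 95% counting interval of 41.1 to 9212, and was the gene with the smallest interaction adjusted p (0.00139). The count of interaction calls changed many-fold with any 1 library left out. It fell without any of the 6 libraries other than the induced spheroids, and rose without either induced spheroid replicate. Each of these fits leaves 1 library in a group, and that group then adds nothing to the estimate of spread.

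Some genes induced by low oxygen were lower in spheroids. Under oxygen shortage the factor HIF-1 binds a short core element, ACGTG, and raises glycolytic enzymes, mitophagy receptors and the hydroxylases that limit HIF itself. Of 21 hypoxia-inducible genes tested, 8 were called lower, 0 higher and 13 neither, 6 being above 0, with medians of -0.99 and -0.83 in spheroid replicates 1 and 2. Of 18 glycolytic genes, 2 were lower and 0 higher, with a median of -0.48. The RefSeq promoters (GRCm38.p6, 250 bases before to 50 after the start) of Egln3, Bnip3 and Pgk1 are shown because these called genes carry the element, in capitals on whichever strand it occurs.

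Egln3, chr12:54203825-54204124, minus strand: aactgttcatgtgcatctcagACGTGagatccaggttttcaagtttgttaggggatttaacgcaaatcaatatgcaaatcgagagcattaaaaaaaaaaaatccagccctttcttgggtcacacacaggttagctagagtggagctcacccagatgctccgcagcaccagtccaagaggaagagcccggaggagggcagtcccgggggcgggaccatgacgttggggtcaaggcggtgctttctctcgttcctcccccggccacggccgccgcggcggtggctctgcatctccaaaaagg
Bnip3, chr7:138909457-138909756, minus strand: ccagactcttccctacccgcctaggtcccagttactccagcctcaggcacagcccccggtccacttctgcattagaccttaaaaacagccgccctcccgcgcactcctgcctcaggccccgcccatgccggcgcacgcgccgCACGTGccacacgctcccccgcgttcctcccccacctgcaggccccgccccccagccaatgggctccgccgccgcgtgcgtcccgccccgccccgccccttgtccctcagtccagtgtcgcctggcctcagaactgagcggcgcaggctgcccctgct
Pgk1, chrX:106186850-106187149, plus strand: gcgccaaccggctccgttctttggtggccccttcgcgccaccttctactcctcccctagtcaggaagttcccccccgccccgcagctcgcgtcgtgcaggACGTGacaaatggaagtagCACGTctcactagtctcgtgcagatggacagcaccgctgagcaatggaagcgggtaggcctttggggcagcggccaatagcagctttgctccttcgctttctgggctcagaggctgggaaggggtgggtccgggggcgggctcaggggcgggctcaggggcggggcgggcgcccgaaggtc

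ACGTG, searched on both strands, occurs once in the Egln3 window, at 2 overlapping positions on opposite strands in that of Bnip3, and at 2 separate positions in that of Pgk1. Over the hypoxia list, 10 of 15 promoters held it (66.7%), and over the glycolysis list 11 of 18 (61.1%), beside 28.8% of 10442 promoters of tested genes and 19.6% of all 32851 promoters. Of 6 called hypoxia genes with a promoter in the table, 4 held it, Bnip3, Egln1, Egln3 and Higd1a. A match describes these letters only and says nothing of binding.

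Egln3, an oxygen-dependent hydroxylase that marks HIF for destruction and is itself a HIF target, had 160.2 and 152 CPM in the flat and 21.3 and 30.2 CPM in the spheroid libraries. Its spheroid libraries lay far below the flat ones (log2 fold change -2.60 ± 0.21, edgeR adjusted p = 0.0178), and the difference was larger than without induction (interaction -1.63 ± 0.24, edgeR adjusted p = 0.0417). Bnip3, a mitophagy receptor, had 209.9 and 200.5 CPM flat and 44.5 and 63.9 CPM in spheroids (log2 fold change -1.92 ± 0.21, edgeR adjusted p = 0.0252). Pdk1, which diverts pyruvate from mitochondria, had 205 and 216 CPM flat and 62.8 and 50.3 CPM in spheroids (log2 fold change -1.90 ± 0.17, edgeR adjusted p = 0.0195). Ero1l, an oxidase of protein folding, had 395 and 397 CPM flat and 105 and 123 CPM in spheroids (log2 fold change -1.79 ± 0.15, edgeR adjusted p = 0.018). Pgk1, phosphoglycerate kinase, had 1572 and 1660.4 CPM flat and 470.4 and 614 CPM in spheroids (log2 fold change -1.58 ± 0.21, edgeR adjusted p = 0.0318). Gpi1, which follows hexokinase in the pathway, had 563 and 559 CPM flat and 235 and 289 CPM in spheroids (log2 fold change -1.10 ± 0.17, edgeR adjusted p = 0.0374). Without spheroid replicate 1 the change of Gpi1 was -0.96, under 2-fold. Adm, the gene of the vasodilator adrenomedullin, Ndrg1, Egln1 and Higd1a were the remaining called members, at -3.24 ± 0.60, -2.61 ± 0.44, -1.23 ± 0.19 and -1.34 ± 0.25. Ndrg1 was not called with group weights (adjusted p = 0.0650). Vegfa, the vascular growth factor and a HIF target of the same list, did not follow them: it had 133 and 135 CPM flat and 181 and 199 CPM in spheroids, both spheroid libraries being higher, and was not called (log2 fold change 0.51 ± 0.14, edgeR adjusted p = 0.083). Nor did Kdm3a, Car9 and Nos2, named after their values were seen. Kdm3a, a histone demethylase, had 104 and 111 CPM flat and 203 and 216 CPM in spheroids, with an adjusted p under 0.05 and a change under 2-fold (log2 fold change 0.97 ± 0.14, edgeR adjusted p = 0.0343). Car9, a carbonic anhydrase, had 1 count in the flat and 24 in the spheroid libraries, a ratio of 19.2 with a 95% counting interval of 3.13 to 789, and was not called (edgeR adjusted p = 0.122). Nos2, the inducible nitric oxide synthase, had 0 and 25 counts, at least 6.66-fold higher with the flat group set to the floor of 3 counts, and was not called either (edgeR adjusted p = 0.0892). Car9 and Nos2 were at least 2-fold higher in each spheroid library alone. Bnip3 shares 22.3%, Higd1a 22.5% and Gpi1 11.5% of exon bases with an antisense gene.

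Transcripts of the mitochondrial genome were higher in spheroids while those of nuclear genes for the same organelle were not. Of 11 mitochondrially encoded genes tested, 9 were called higher, and the 13 in the list together took 0.268% and 0.307% of counts in the flat and 2.00% and 2.14% in the spheroid libraries. mt-Nd4, a subunit of respiratory complex I, had 156 and 182 CPM in the flat and 1449 and 1388 CPM in the spheroid libraries (log2 fold change 3.07 ± 0.18, edgeR adjusted p = 0.0135). mt-Cytb, of complex III, had 355 and 400.4 CPM flat and 3112 and 2748 CPM in spheroids (log2 fold change 2.96 ± 0.20, edgeR adjusted p = 0.0148), and mt-Nd2 and mt-Nd6 rose by 3.05 ± 0.21 and 2.44 ± 0.17. All 29 nuclear-encoded respiratory chain genes tested had a log2 fold change below 0, with medians of -0.79 in spheroid replicate 1 and -0.27 in replicate 2, and 0 passed the test at 2-fold. Of 27 genes of the citrate cycle and pyruvate metabolism, 26 were below 0 and 2 were called, Idh2 (515 and 541 CPM flat and 206 and 159 CPM in spheroids; log2 fold change -1.53 ± 0.18, edgeR adjusted p = 0.0291) and Idh3a (357 and 345 CPM flat and 128 and 177 CPM in spheroids; log2 fold change -1.20 ± 0.20, edgeR adjusted p = 0.0417), both isocitrate dehydrogenases of the mitochondrion. Without spheroid replicate 1 the change of Idh3a was -0.99. None of 21 fatty acid oxidation genes was called.

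Some RNAs that stay in the nucleus were higher in spheroids, as the mitochondrial ones were. Of 5 members of this list tested, 3 were called higher and 0 lower. In 1 member, spheroid replicate 1 lay below and replicate 2 above the flat mean. Neat1, the scaffold of paraspeckles, had 61.8 and 64.2 CPM in the flat and 739 and 728 CPM in the spheroid libraries (log2 fold change 3.54 ± 0.16, edgeR adjusted p = 0.00753). Malat1, a nuclear speckle RNA, had 133 and 141 CPM flat and 769 and 888 CPM in spheroids (log2 fold change 2.59 ± 0.17, edgeR adjusted p = 0.014). Kcnq1ot1 had 1.88 and 2.03 CPM flat and 7.17 and 9.07 CPM in spheroids (log2 fold change 2.05 ± 0.30, edgeR adjusted p = 0.0348). The 8 RNAs of this list took 0.151% and 0.174% of counts in the flat and 0.263% and 1.30% in the spheroid libraries. They summed to 1597 and 1842 CPM flat and 2536 and 12501 CPM in spheroids. In the flat libraries and in spheroid replicate 2, most of this sum came from members other than the 3 called. Gm26917, a gene model of this list (chromosome 17, 39843013 to 39846341), had 55.1 and 47 CPM in the flat and 363 and 6396 CPM in the spheroid libraries. It was not called, and its 2 spheroid libraries lay far apart. Whether this RNA stays in the nucleus was not tested. Cytosolic ribosomal protein genes were lower, 10 of 31 called, with all 31 below 0 and a median of -0.94, among them Rpl3 (980.5 and 987 CPM flat and 439 and 404 CPM in spheroids; log2 fold change -1.22 ± 0.16, edgeR adjusted p = 0.0305) and Rps19 (-1.19 ± 0.17). Without spheroid replicate 1, 4 of the 31 were called. These 3 classes moved in the same directions without induction, with list medians of 2.12, 2.1 and -0.91. Their part in the other results was not tested. With all 3 classes left out of the scaling, 768 genes were called in place of 771.

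Several cholesterol genes were lower in spheroids. When sterols are scarce, SREBP-2 binds sterol elements such as TCACNCCAC and raises the enzymes of the pathway. Of 23 genes of cholesterol synthesis and its regulators, 7 were called lower and 0 higher, 22 were below 0, and the median was -1.01. Hmgcs1, the enzyme that feeds the pathway, had 208 and 204 CPM in the flat and 78.5 and 73.1 CPM in the spheroid libraries (log2 fold change -1.44 ± 0.13, edgeR adjusted p = 0.0199). Cyp51, which demethylates lanosterol, had 66.6 and 69.4 CPM flat and 16 and 16.3 CPM in spheroids (log2 fold change -2.07 ± 0.15, edgeR adjusted p = 0.0166). Msmo1, which acts after it, had 75.9 and 69.6 CPM flat and 30.8 and 26.4 CPM in spheroids (log2 fold change -1.35 ± 0.16, edgeR adjusted p = 0.0291). Insig1, the sensor that retains SREBP when sterols suffice and is itself an SREBP target, had 127 and 135 CPM flat and 31.7 and 45.4 CPM in spheroids (log2 fold change -1.76 ± 0.21, edgeR adjusted p = 0.0291). Acat2, Nsdhl and Sqle were the other members called, at -1.41 ± 0.17, -1.5 ± 0.19 and -1.01 ± 0.14, and without spheroid replicate 2 Acat2 had an adjusted p of 0.0534. The promoter of Hmgcs1 is shown with the sterol element in capitals because it was the only 1 of the 17 promoters of this list with that exact element, which 1.35% of promoters of tested genes hold.

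Hmgcs1, chr13:119690101-119690400, plus strand: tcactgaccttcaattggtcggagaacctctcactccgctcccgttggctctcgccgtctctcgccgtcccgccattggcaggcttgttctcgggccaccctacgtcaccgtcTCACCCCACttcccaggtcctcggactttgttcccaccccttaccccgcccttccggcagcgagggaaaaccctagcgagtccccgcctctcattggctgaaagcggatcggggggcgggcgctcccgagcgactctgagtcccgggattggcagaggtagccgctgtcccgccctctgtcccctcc

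Several small proteoglycans of the matrix were lower in spheroids. Of 14 small proteoglycan and hyaluronan genes tested, 6 were called lower, 0 higher and 8 neither, 5 being above 0, with medians of -0.61 and -1.24 in spheroid replicates 1 and 2. Ogn, the gene of osteoglycin (chromosome 13, 49608046 to 49624501), stood at 275 and 312 CPM in the flat and 2.44 and 3.51 CPM in the spheroid libraries, a difference of 97.8-fold and the largest decrease among genes of that level (log2 fold change -6.61 ± 0.25, edgeR adjusted p = 0.00753). Prelp, which anchors basement membranes to connective tissue, had 113 and 112 CPM flat and 11.2 and 9.66 CPM in spheroids (log2 fold change -3.43 ± 0.17, edgeR adjusted p = 0.00807). Fmod, fibromodulin, had 18.6 and 19 CPM flat and 1.15 and 0.702 CPM in spheroids (log2 fold change -4.34 ± 0.32, edgeR adjusted p = 0.0169). Aspn, asporin, had 614 and 644 CPM flat and 256 and 227 CPM in spheroids (log2 fold change -1.38 ± 0.15, edgeR adjusted p = 0.0252). Lum and Dcn, lumican and decorin, were lower by -2.70 ± 0.49 and -1.09 ± 0.21 on the log2 scale, and without spheroid replicate 2 the change of Dcn was -0.91. All 6 bind collagen fibrils or regulate their assembly. The list median without induction was -1.64.

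Fibrillar collagens set the 2 spheroid libraries apart. All 15 tested members were higher in spheroid replicate 1 than in replicate 2, with medians of -0.13 and -1.76 against the flat mean. Col1a1, a chain of type I collagen, shows this: at 5260.1 and 5008 CPM in the flat and 4580.3 and 1184 CPM in the spheroid libraries, replicate 1 was near the flat level and replicate 2 far below it (log2 fold change -0.83 ± 0.62, edgeR adjusted p = 0.412). Fn1, fibronectin, had the same form (2407 and 2402 CPM flat and 1847 and 506 CPM in spheroids; log2 fold change -1.03 ± 0.60, edgeR adjusted p = 0.303). Col11a1, which sits in the core of thin fibrils, was the only member called (295 and 288 CPM flat and 43.8 and 12 CPM in spheroids; log2 fold change -3.39 ± 0.62, edgeR adjusted p = 0.0459), and 10 were called lower without spheroid replicate 1 against 2 without replicate 2. Col27a1, a minor fibrillar collagen, was above the flat libraries in both, at 27.5 and 25 against 173 and 61.4 CPM, and missed the threshold (log2 fold change 2.15 ± 0.50, edgeR adjusted p = 0.066). Among 17 basement membrane genes none was called, with medians of 0.52 and -0.80.

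Few enzymes and glycoproteins that act on collagen were called. Lox, which crosslinks collagen and elastin, had 2317 and 2472 CPM in the flat and 707 and 403 CPM in the spheroid libraries (log2 fold change -2.11 ± 0.32, edgeR adjusted p = 0.036). P4ha1, a collagen prolyl hydroxylase and HIF target, had 529.6 and 536 CPM flat and 243 and 274 CPM in spheroids (log2 fold change -1.04 ± 0.15, edgeR adjusted p = 0.0348). These were the 2 called of 20 collagen modifying enzymes, and P4ha1 stood at -0.96 without spheroid replicate 1. Of 22 matricellular and adhesive glycoproteins, 4 were lower and 1 higher, with medians of 0.025 and -0.89 in spheroid replicates 1 and 2. Postn, periostin, had 2531 and 2596 CPM flat and 679 and 317 CPM in spheroids (log2 fold change -2.36 ± 0.40, edgeR adjusted p = 0.0419). Sparc, a collagen-binding protein, had 3214 and 3229.9 CPM flat and 1549 and 1182 CPM in spheroids (log2 fold change -1.24 ± 0.22, edgeR adjusted p = 0.0436), and Fbln5 and Mfap5, of elastic fibres and microfibrils, fell to log2 fold changes of -2.30 ± 0.40 and -3.17 ± 0.57, the latter not called with group weights (adjusted p = 0.0927). Spp1, osteopontin, rose (354 and 354 CPM flat and 881 and 646 CPM in spheroids; log2 fold change 1.11 ± 0.20, edgeR adjusted p = 0.0461), by 0.87 without spheroid replicate 1, and shares 18.8% of its exon bases with another gene on its strand.

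Matrix proteases moved in both directions, 3 of 26 higher and 3 lower. Mmp13, a collagenase, had 12.5 and 12 CPM in the flat and 85.1 and 90.5 CPM in the spheroid libraries, the 2 spheroid libraries close together and 7.15-fold above the flat ones (log2 fold change 2.84 ± 0.16, edgeR adjusted p = 0.0105), and rose more than without induction (interaction 1.53 ± 0.20, edgeR adjusted p = 0.0299). Mmp10, a stromelysin, had 1 count in the flat and 130 in the spheroid libraries, a ratio of 104 with a 95% counting interval of 18.3 to 4137. Mmp12, the macrophage elastase, had 0 and 51 counts, at least 13.6-fold higher with the flat group set to the same floor. Adamts5, which cuts the large proteoglycans, had 112 and 109 CPM flat and 18.5 and 8.13 CPM in spheroids (log2 fold change -3.06 ± 0.41, edgeR adjusted p = 0.0329), and Adamts2 and Timp4, a procollagen peptidase and a protease inhibitor, were lower by -1.70 ± 0.32 and -1.77 ± 0.34, Timp4 not with group weights (adjusted p = 0.129). Timp1, another inhibitor, had 77 and 76.4 CPM flat and 141 and 151 CPM in spheroids with an adjusted p under 0.05 and a change under 2-fold (log2 fold change 0.93 ± 0.13, edgeR adjusted p = 0.0348).

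Contractile and adhesion genes changed little as groups. Of 29 genes of the contractile actin cytoskeleton, with a median of 0.20, Actn1, which bundles actin at adhesions, was higher (142 and 140.5 CPM flat and 311 and 302 CPM in spheroids; log2 fold change 1.12 ± 0.13, edgeR adjusted p = 0.0278), while Cnn2, a calponin, and Lmod1, a leiomodin of smooth muscle, were lower (-1.21 ± 0.14 and -3.99 ± 0.38). Acta2, smooth muscle actin, had 72.5 and 66.3 CPM flat and 47 and 13.5 CPM in spheroids and was not called (log2 fold change -1.20 ± 0.57, edgeR adjusted p = 0.226). Of 29 genes of the YAP and TAZ pathway, with a median of 0.04, 2 were higher and 1 lower. Ccn1, a secreted matricellular target, had 16.3 and 15.2 CPM in the flat and 44.6 and 94 CPM in the spheroid libraries (log2 fold change 2.14 ± 0.39, edgeR adjusted p = 0.0447). Ccn2, its relative, had 0.179 and 0.21 CPM flat and 1.9 and 2.98 CPM in spheroids (log2 fold change 3.59 ± 0.60, edgeR adjusted p = 0.0412), while Amotl2, a target that holds YAP in the cytoplasm, had 174 and 168 CPM flat and 80.6 and 80.6 CPM in spheroids (log2 fold change -1.08 ± 0.13, edgeR adjusted p = 0.0281). These 3 targets of 1 pathway thus did not share a direction, and Ccn2 shares 23.2% of its exon bases with an antisense gene. Among 18 integrin genes Itgbl1, an integrin-like secreted protein, was the only call (36.4 and 41.7 CPM flat and 0.744 and 0.293 CPM in spheroids; log2 fold change -6.24 ± 0.40, edgeR adjusted p = 0.014). Of 18 cadherin and junction genes, Jup, plakoglobin, was higher (23 and 20.9 CPM flat and 43.6 and 47.9 CPM in spheroids; log2 fold change 1.06 ± 0.16, edgeR adjusted p = 0.0374) and Nectin2 lower (69.8 and 69.9 CPM flat and 32.6 and 26.7 CPM in spheroids; log2 fold change -1.23 ± 0.17, edgeR adjusted p = 0.0337), and without spheroid replicate 2 Jup stood at 0.99.

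Some immediate early genes, which respond within minutes to serum, stretch or growth factors, were higher. Of 21 tested, 5 were called higher and 0 lower, 20 were above 0, and the medians were 0.74 in spheroid replicate 1 and 1.95 in replicate 2, replicate 2 being the higher in 19 of the 21. Dusp6, a phosphatase that ERK signalling raises and that dampens it, had 3.48 and 3.92 CPM in the flat and 21.9 and 31.1 CPM in the spheroid libraries (log2 fold change 2.84 ± 0.27, edgeR adjusted p = 0.0225). Egr3 had 1.97 and 0.84 CPM flat and 11 and 12.2 CPM in spheroids (log2 fold change 3.07 ± 0.44, edgeR adjusted p = 0.0348). Egr2 had 4.11 and 2.45 CPM flat and 11.3 and 20.1 CPM in spheroids (log2 fold change 2.27 ± 0.43, edgeR adjusted p = 0.0469). Junb, an AP-1 subunit, had 29.4 and 32.1 CPM flat and 103 and 266 CPM in spheroids (log2 fold change 2.58 ± 0.47, edgeR adjusted p = 0.046). Egr1 had 73.9 and 77.1 CPM flat and 140.1 and 215 CPM in spheroids (log2 fold change 1.24 ± 0.24, edgeR adjusted p = 0.049) and stood at 0.89 without spheroid replicate 2. The list median without induction was 1.22.

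Of 25 genes of TGF-β and BMP signalling, 5 were called higher, 2 lower and 18 neither, and in 6 the 2 spheroid libraries lay on opposite sides of the flat mean. Id1 to Id4 encode inhibitors of helix-loop-helix factors and are direct targets of BMP signalling, and all 4 were among the 5 called higher. Id1 had 37.8 and 38.4 CPM in the flat and 120.2 and 185 CPM in the spheroid libraries (log2 fold change 2.00 ± 0.24, edgeR adjusted p = 0.0291). Id2 had 0.893 and 0.49 CPM flat and 10.1 and 27.1 CPM in spheroids (log2 fold change 4.76 ± 0.67, edgeR adjusted p = 0.0348). Id3 had 9.74 and 9.31 CPM flat and 65.1 and 97.8 CPM in spheroids (log2 fold change 3.10 ± 0.26, edgeR adjusted p = 0.0178), and Id4 had 1.43 and 0.56 CPM flat and 8.73 and 9.83 CPM in spheroids (log2 fold change 3.25 ± 0.48, edgeR adjusted p = 0.0353). In each of the 4, both spheroid libraries lay above both flat ones, which held for 31.9% of all tested genes. Smad7, the inhibitory Smad that the pathway itself induces, had 4.02 and 5.46 CPM flat and 17 and 39.8 CPM in spheroids (log2 fold change 2.58 ± 0.48, edgeR adjusted p = 0.0463). Chrdl1 and Fst, secreted antagonists of BMPs and activins, were the 2 lower members (144 and 152 CPM flat and 16.9 and 4.33 CPM in spheroids; log2 fold change -3.81 ± 0.63, edgeR adjusted p = 0.0417, and 119.5 and 122 CPM flat and 52.7 and 30.9 CPM in spheroids; log2 fold change -1.53 ± 0.28, edgeR adjusted p = 0.0447), and Chrdl1 had an adjusted p of 0.0642 with the replicate block. The median of the list was 0.69 with and 0.91 without induction. Of 15 Wnt genes, 3 were lower, the secreted Dkk3 (91 and 93.5 CPM flat and 24.4 and 15.9 CPM in spheroids; log2 fold change -2.20 ± 0.24, edgeR adjusted p = 0.0252) and the receptors Fzd4 and Fzd2 (-2.0 ± 0.29 and -1.12 ± 0.20), and Fzd2 stood at -0.91 without spheroid replicate 2.

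Growth factor genes changed one by one. Hgf, hepatocyte growth factor, had 19.6 and 21.7 CPM flat and 49.5 and 51.9 CPM in spheroids (log2 fold change 1.30 ± 0.16, edgeR adjusted p = 0.0295), while its receptor Met had 92.7 and 95.6 CPM flat and 24.2 and 32.3 CPM in spheroids (log2 fold change -1.74 ± 0.19, edgeR adjusted p = 0.0252), so ligand and receptor moved in opposite directions. Ereg, an EGF family ligand, had 5.81 and 4.83 CPM flat and 42.8 and 120.3 CPM in spheroids (log2 fold change 3.94 ± 0.57, edgeR adjusted p = 0.0348). Gdnf, a neurotrophic factor, had 2.41 and 3.99 CPM flat and 16.2 and 15 CPM in spheroids (log2 fold change 2.27 ± 0.32, edgeR adjusted p = 0.0346). Igf2, insulin-like growth factor 2, had 147 and 153 CPM in the flat and 7.11 and 3.28 CPM in the spheroid libraries, 29.1-fold lower (log2 fold change -4.86 ± 0.39, edgeR adjusted p = 0.0175), with 64.5% of its exon bases shared with another gene model on the same strand. Of 22 growth factor genes, 3 were higher and 2 lower. Of 12 angiogenic genes, 1 was called, Flt1, a VEGF receptor (1.97 and 4.2 CPM flat and 16.9 and 13.9 CPM in spheroids; log2 fold change 2.30 ± 0.41, edgeR adjusted p = 0.0438).

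Of 19 chemokines and inflammatory cytokines tested, 5 were called higher and 0 lower, with medians of 1.74 and 0.86 in spheroid replicates 1 and 2. In both spheroid libraries, 9 members were at least 2-fold above the flat mean and 2 at least 2-fold below it. In 5 members the 2 spheroid libraries lay on opposite sides of it. The summed level of the list was lower in spheroids, at 2200 and 2138 CPM flat and 1509 and 1227 CPM in spheroids. Cxcl1, a neutrophil attractant, had 3.04 and 3.22 CPM in the flat and 27.5 and 102 CPM in the spheroid libraries (log2 fold change 4.37 ± 0.72, edgeR adjusted p = 0.041). Cxcl5, of the same kind, had 13.5 and 13 CPM flat and 55.9 and 75.8 CPM in spheroids (log2 fold change 2.32 ± 0.21, edgeR adjusted p = 0.0199). Ccl2, which attracts monocytes, had 13.4 and 10.4 CPM flat and 63.5 and 189 CPM in spheroids (log2 fold change 3.41 ± 0.57, edgeR adjusted p = 0.0418), with an adjusted p of 0.0538 under the replicate block. The cytokines Lif and Il11, which signal through gp130, had 0.357 and 0.35 CPM flat and 3.11 and 3.22 CPM in spheroids (log2 fold change 3.13 ± 0.45, edgeR adjusted p = 0.0348) and 0.179 and 0.28 CPM flat and 2.44 and 2.4 CPM in spheroids (log2 fold change 3.32 ± 0.54, edgeR adjusted p = 0.0396). Ptgs2, the inducible cyclooxygenase, had 1.7 and 0.91 CPM flat and 10.5 and 75.5 CPM in spheroids and missed the threshold (log2 fold change 5.07 ± 1.12, edgeR adjusted p = 0.061). Of 17 NF-κB genes, Nfkbiz, an inducible IκB protein, was called (9.02 and 11.3 CPM flat and 51.8 and 80.5 CPM in spheroids; log2 fold change 2.70 ± 0.29, edgeR adjusted p = 0.0243).

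Acute phase proteins included 1 of the steepest increases. Saa3, serum amyloid A3 (chromosome 7, 46711998 to 46715700), had 6.52 and 7.84 CPM in the flat and 232 and 199 CPM in the spheroid libraries, 29.9-fold higher (log2 fold change 4.90 ± 0.19, edgeR adjusted p = 0.00753). Without induction it stood at 10.5 and 10.6 CPM flat and 1212 and 1309 CPM in spheroids, and the increase there was the larger one (interaction -2.01 ± 0.20, edgeR adjusted p = 0.0131). Hp, haptoglobin, had 31.4 and 33 CPM flat and 181 and 91.5 CPM in spheroids (log2 fold change 2.08 ± 0.35, edgeR adjusted p = 0.0418) and also rose more without induction (interaction -3.50 ± 0.43, edgeR adjusted p = 0.0255). These were the 2 called of 20 complement and acute phase genes.

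**Figure D4:**
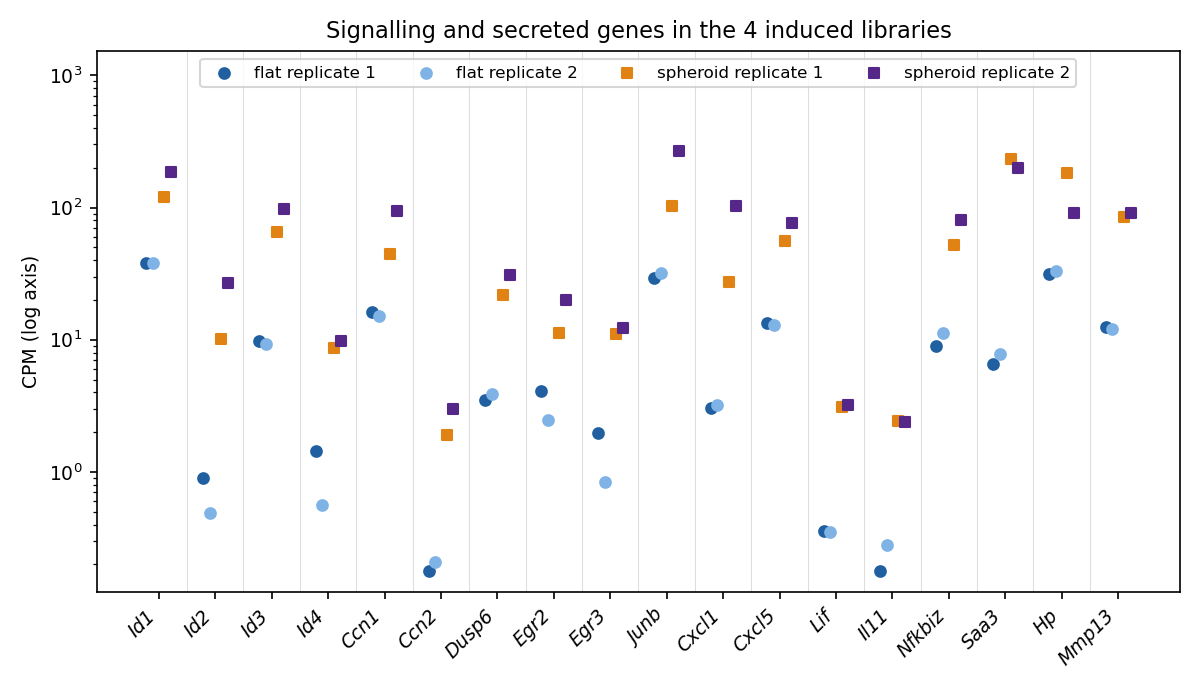
CPM on a log axis of 18 genes of BMP, immediate early, cytokine, acute phase and protease function in the 2 flat (blue circles) and 2 spheroid (orange and purple squares) induced libraries. All 18 were selected from genes called higher. Both spheroid libraries lie above both flat libraries for each of them, with Saa3 at 232 and 199 CPM in spheroids against 6.52 and 7.84 CPM flat. Such an increase without overlap held for 31.9% of all tested genes.

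The 2 spheroid libraries disagreed on the interferon response. Interferons act through a complex with STAT2 and IRF9, which binds an element in which GAAA is followed by any 2 bases and GAAA again, in the promoters of antiviral genes. Of 35 interferon genes tested, 27 were above the flat mean in spheroid replicate 1 and below it in replicate 2, with medians of 0.74 and -1.52, and the list median over both was 0.10. Isg15 lay close to the flat mean in replicate 1 and below it in replicate 2, and Bst2 is the only called member. Both are shown because they hold the element, in capitals. Of 26 promoters of this list 14 held it (53.8%), beside 3.76% of promoters of tested genes.

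Isg15, chr4:156200769-156201068, minus strand: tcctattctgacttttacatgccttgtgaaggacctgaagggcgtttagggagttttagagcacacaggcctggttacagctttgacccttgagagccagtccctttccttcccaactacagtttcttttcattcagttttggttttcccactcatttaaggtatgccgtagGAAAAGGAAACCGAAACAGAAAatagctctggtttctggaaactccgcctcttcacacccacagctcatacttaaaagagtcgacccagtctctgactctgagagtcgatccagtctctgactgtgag
Bst2, chr8:71537423-71537722, minus strand: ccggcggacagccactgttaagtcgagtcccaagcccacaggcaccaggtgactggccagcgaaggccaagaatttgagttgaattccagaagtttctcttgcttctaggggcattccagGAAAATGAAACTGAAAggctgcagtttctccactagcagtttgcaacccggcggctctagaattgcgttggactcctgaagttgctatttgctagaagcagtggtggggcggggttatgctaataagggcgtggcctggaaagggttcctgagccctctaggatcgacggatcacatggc

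Oas2, a sensor of double-stranded RNA, had 7.41 and 4.9 CPM in the flat and 15.7 and 0.293 CPM in the spheroid libraries, above the flat level in replicate 1 and near 0 in replicate 2 (log2 fold change 0.37 ± 1.37, edgeR adjusted p = 0.882). Ifi44 had 15.5 and 14.6 CPM flat and 30.7 and 1.81 CPM in spheroids (log2 fold change 0.10 ± 1.11, edgeR adjusted p = 0.959). Iigp1, an immunity-related GTPase, had 20.4 and 21.4 CPM flat and 44.7 and 3.75 CPM in spheroids (log2 fold change 0.21 ± 1.01, edgeR adjusted p = 0.909). Isg15, a ubiquitin-like antiviral protein, had 32.1 and 26 CPM flat and 31.6 and 6.44 CPM in spheroids (log2 fold change -0.61 ± 0.71, edgeR adjusted p = 0.597). Bst2, tetherin, which holds virus particles at the cell surface, was lower in both, with 222 and 209 CPM flat and 82.1 and 47.5 CPM in spheroids (log2 fold change -1.74 ± 0.28, edgeR adjusted p = 0.041). The number of interferon genes called lower was 22 without spheroid replicate 1, and without spheroid replicate 2 it was 3 with 13 called higher, so no direction holds for the group. Ifi27l2a, an interferon-inducible gene outside the list, was lower in both spheroid libraries (28.4 and 23.8 CPM flat and 2.37 and 2.4 CPM in spheroids; log2 fold change -3.45 ± 0.23, edgeR adjusted p = 0.0148), and less so than without induction (interaction 2.30 ± 0.25, edgeR adjusted p = 0.0174).

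Cell cycle genes divided the spheroid libraries as well. Of 33 tested, 30 were higher in replicate 1 than in replicate 2, with medians of -0.08 and -1.41 against the flat mean. Mki67, the proliferation marker Ki-67, had 54.5 and 48.2 CPM in the flat and 78.6 and 18.5 CPM in the spheroid libraries, so replicate 1 lay above and replicate 2 below the flat libraries (log2 fold change -0.08 ± 0.65, edgeR adjusted p = 0.943). Ccne1, cyclin E1, was the only member called (33.9 and 36.5 CPM flat and 17.6 and 12.6 CPM in spheroids; log2 fold change -1.22 ± 0.22, edgeR adjusted p = 0.0457), and 21 were called lower without spheroid replicate 1 against 1 without replicate 2. Cdkn1a, the cell cycle inhibitor p21, had 182 and 192 CPM flat and 178 and 351 CPM in spheroids and was not called (log2 fold change 0.50 ± 0.33, edgeR adjusted p = 0.359). Of 19 p53 targets and inhibitors, Eda2r, a TNF receptor family member, was higher (21.5 and 21.5 CPM flat and 41.6 and 45.6 CPM in spheroids; log2 fold change 1.02 ± 0.16, edgeR adjusted p = 0.0374), and stood at 0.95 without spheroid replicate 2.

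**Figure D5:**
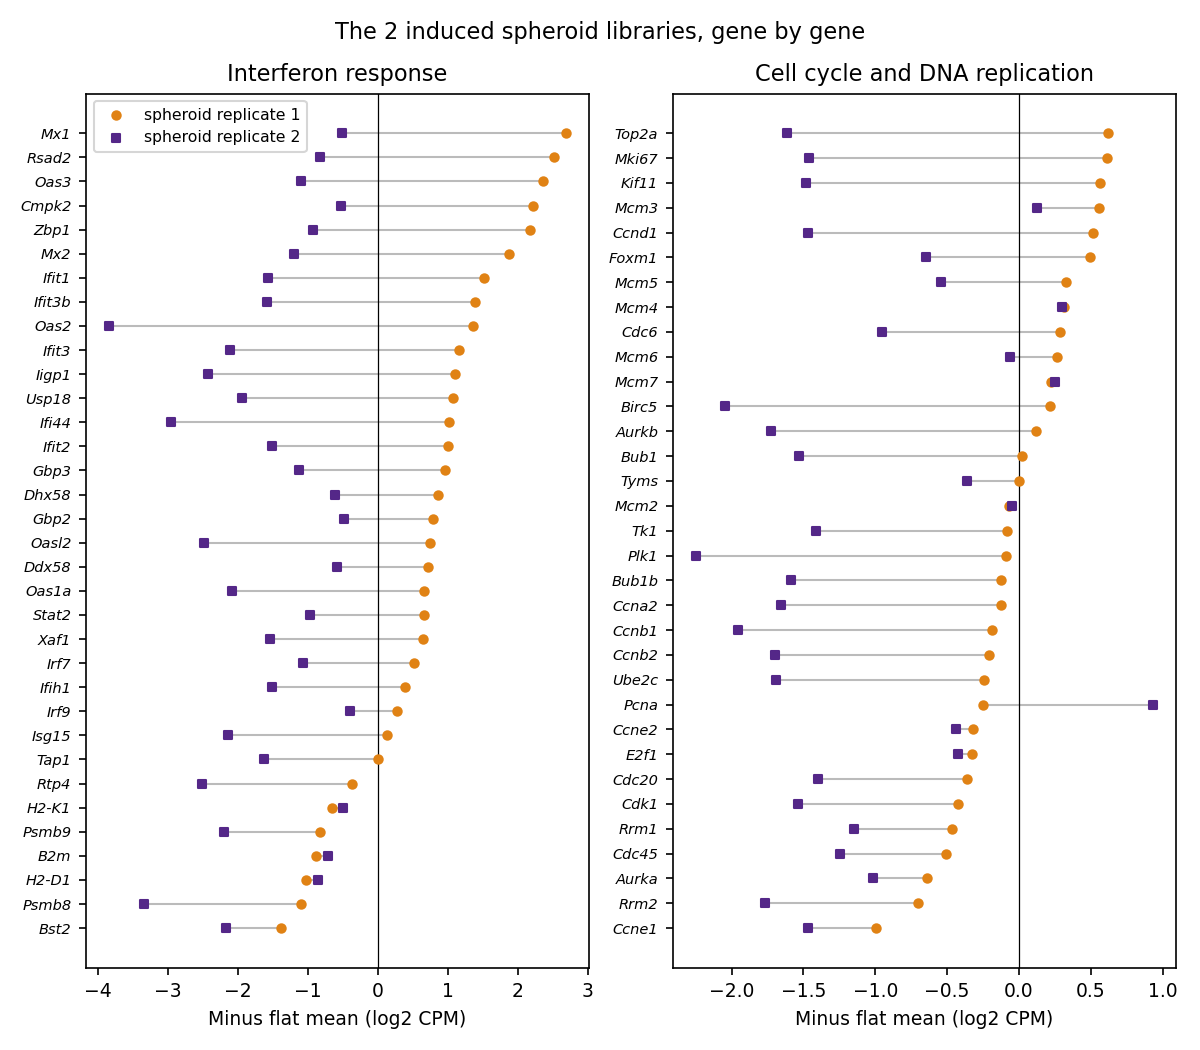
For each of 34 interferon response genes (left) and 33 cell cycle genes (right), the log2 CPM difference from the flat mean in spheroid replicate 1 (orange circles) and replicate 2 (purple squares), joined by a line. Replicate 2 lies to the left of replicate 1 in 31 interferon genes and in 30 cell cycle genes, and 26 interferon genes have the 2 replicates on opposite sides of 0 with replicate 1 higher.

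Other stress groups held few calls. Of 26 genes of the unfolded protein and amino acid response, Xbp1, a factor that expands the secretory pathway, was lower (148 and 147 CPM flat and 77.6 and 52.6 CPM in spheroids; log2 fold change -1.18 ± 0.22, edgeR adjusted p = 0.0461), as was Cth, of cysteine synthesis (33.2 and 33.1 CPM flat and 11.5 and 8.66 CPM in spheroids; log2 fold change -1.72 ± 0.21, edgeR adjusted p = 0.0299), and Xbp1 stood at -0.93 without spheroid replicate 2. Of 9 glucocorticoid responsive genes, Tsc22d3, the gene of GILZ, was lower (186 and 193 CPM flat and 68.4 and 70.9 CPM in spheroids; log2 fold change -1.45 ± 0.13, edgeR adjusted p = 0.0195). No member was called among 24 antioxidant and 27 lysosomal genes.

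Markers of other cell types were low in these cultures. Of 14 macrophage markers, Adgre1, Ptprc, Tyrobp and the 3 C1q genes were at 0 in all 4 libraries. The list summed to 18.9 and 19.3 CPM in the flat and 29.7 and 54.5 CPM in the spheroid libraries. Of the 6 members tested, 5 were above 0 and 1 below, with a median log2 fold change of 1.01. In both spheroid libraries, 3 members were at least 2-fold above the flat mean and 1 at least 2-fold below it. Mrc1 had 2 counts in the flat and 25 in the spheroid libraries and was not called. Cd68, a lysosomal protein not limited to macrophages, was the member called (0.536 and 0.56 CPM flat and 3.45 and 10.6 CPM in spheroids; log2 fold change 3.66 ± 0.70, edgeR adjusted p = 0.0485). Endothelial markers summed to at most 5.50 CPM in any library with 4 of 10 at 0 in all 4, and epithelial markers to at most 17 CPM with 3 of 17 at 0. Muscle markers summed to 4.56 and 5.32 CPM flat and 24.7 and 14.3 CPM in spheroids, with 8 of 12 at 0, and neural markers to at most 17.7 CPM with 2 of 12 at 0. Cartilage and bone markers summed to 49.8 and 53 CPM flat and 118 and 83.9 CPM in spheroids, with 3 of 14 at 0 throughout, and Chil1, a chitinase-like secreted protein, was the member called (9.38 and 11.1 CPM flat and 36.4 and 30.6 CPM in spheroids; log2 fold change 1.71 ± 0.20, edgeR adjusted p = 0.0283). Their part in the other results was not tested.

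Among the genes with the largest changes, several belong to none of the lists. Tnn, tenascin N of the bone and tooth matrix, had 1.79 and 1.61 CPM in the flat and 48.9 and 51.5 CPM in the spheroid libraries, 29.5-fold higher (log2 fold change 4.88 ± 0.21, edgeR adjusted p = 0.00753). Rgs4, a regulator of G protein signalling, had 1.07 and 0.84 CPM flat and 24.6 and 15.4 CPM in spheroids (log2 fold change 4.38 ± 0.38, edgeR adjusted p = 0.0189). Hr, the hairless corepressor, had 1.34 and 1.54 CPM flat and 39.3 and 15.1 CPM in spheroids (log2 fold change 4.22 ± 0.57, edgeR adjusted p = 0.0335). Spaca6 and Mdga1, a sperm-egg fusion protein and a neuronal adhesion protein in other tissues, had 3.48 and 2.94 CPM flat and 103 and 52.2 CPM in spheroids (log2 fold change 4.59 ± 0.42, edgeR adjusted p = 0.0199) and 0.804 and 0.28 CPM flat and 18.6 and 6.85 CPM in spheroids (log2 fold change 4.58 ± 0.75, edgeR adjusted p = 0.041). On the lower side, Rgcc, a cell cycle regulator and complement response gene, had 46.2 and 44.6 CPM in the flat and 1.49 and 1.17 CPM in the spheroid libraries (log2 fold change -5.09 ± 0.23, edgeR adjusted p = 0.00753). Clec3b, tetranectin, had 184 and 180.2 CPM flat and 11.2 and 4.39 CPM in spheroids (log2 fold change -4.55 ± 0.46, edgeR adjusted p = 0.0235). Lgals12, a galectin of lipid droplets, had 26.1 and 25 CPM flat and 0.677 and 1.58 CPM in spheroids (log2 fold change -4.47 ± 0.41, edgeR adjusted p = 0.0199). Ear2, of a family of closely similar ribonucleases whose reads cannot be assigned with certainty, had 18.4 and 16.5 CPM flat and 0.338 and 0.117 CPM in spheroids (log2 fold change -6.25 ± 0.45, edgeR adjusted p = 0.0166). Without induction, raw counts summed over flat, then spheroid libraries were as follows. Tnn had 49 and 4530, Rgs4 61 and 504, Hr 16 and 1174, Spaca6 202 and 2440, and Mdga1 17 and 457. Rgcc had 123 and 13, Clec3b 5754 and 118, Lgals12 6 and 1, and Ear2 2 and 1. Ogn, Itgbl1 and Igf2, described above, had 22061 and 72, 2270 and 27, and 6455 and 105. Except in Lgals12 and Ear2, where counts were few, the direction was the same as with induction.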

How the data were processed

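RNA from day 7 cultures was sequenced from directional libraries, per the labels' protocols. The authors deposited raw read counts per Ensembl gene for 8 libraries, with no normalization. Per the submitters' processing notes, the build was mm10, alignment tools included HISAT2 2.1.0, and featureCounts 1.6.3, Trimmomatic 0.38 and FastQC 0.11.7 are also listed. The strand setting, other settings and the annotation release were not given in the sources used here. Library totals were 11839374 to 21169390, and a gene at 1 CPM carried a counting error of 21.7 to 29.1%, which covers counting only. Genes without a symbol held 0.0243% to 0.0338% of counts.

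From these counts, genes were kept by filterByExpr (minimum count 10, 4 groups), scaled by TMM over the 8 libraries, and tested with edgeR 4.0.16 in R 4.3.3 (robust quasi-likelihood fit, two-sided, Benjamini-Hochberg adjustment, called at adjusted p under 0.05 and at least 2-fold). The spheroid comparison was fitted on the 4 induced libraries (2 residual degrees of freedom, common dispersion 0.0530), because the spread of the induced spheroids differed from that of the other groups, and the interaction on all 8 (4 residual degrees of freedom, common dispersion 0.0290). Single-library differences used log2 CPM with a prior count of 2. The script was tested on simulated data. The alternatives were RLE size factors, DESeq2 1.42.0, other filters, all 8 libraries in the fit, limma-voom (limma 3.58.1) with group weights, a replicate block, and each library left out. A scaling without mitochondrial, nuclear-retained and ribosomal protein genes, and the 8-library fit without each induced spheroid library, were chosen after seeing the data. The comparison and the gene lists were chosen with earlier results of these data known.

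Genes were named by rule: in each direction, the 10 called genes that changed most at a mean log2 CPM of at least 1 with groups that did not overlap, up to 4 members of each list with the smallest adjusted p, 21 key genes, the 6 genes in each direction farthest apart between the spheroid replicates, and up to 6 interaction calls in each direction. Gm and Rik symbols were left out of the first and the last 2 parts. Other list members that were called, Isg15, and the interaction calls of the fat lists were added after their values were seen. Slc2a4rg-ps, a pseudogene, was met by the rule and is not described, and some other genes are not reported here. Positions are from GENCODE vM21 (GRCm38), which held 15216 of the 15254 gene IDs tested, and promoters from RefSeq, GRCm38.p6.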

Additional observations from a re-analysis of the deposited data

Results flagged for a closer look

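For 23 genes named here, the difference between spheroid and flat culture itself differed between induced and uninduced cells (edgeR interaction on all 8 libraries, adjusted p under 0.05). Each value is the induced minus the uninduced log2 difference. The induced and uninduced comparisons share no library, and calls of this kind numbered 1 to 8 in all when any library other than an induced spheroid was left out.

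Of fat cell genes, Plin1 had the largest such difference, -8.69 ± 0.46 (edgeR adjusted p = 0.00139), a fitted value that rests on 1 count in the uninduced flat libraries. Gpd1 had -6.01 ± 0.68 (edgeR adjusted p = 0.0208). Acsl1 had -3.96 ± 0.29 (edgeR adjusted p = 0.00316), Lipe -3.10 ± 0.33 (0.0174), Cebpa -2.46 ± 0.18 (0.00316) and Scd1 -2.17 ± 0.14 (0.00316), all of them called lower in induced spheroids. Lcn2, lipocalin 2, had -4.81 ± 0.44 (0.0109), with uninduced levels of 2.09 and 2.79 CPM flat and 104 and 182 CPM in spheroids and induced levels of 30.6 and 33.5 CPM flat and 56 and 79.9 CPM in spheroids. Dgat1, which completes triglycerides, had -1.90 ± 0.18 (0.0109), and its uninduced log2 difference was 1.08 ± 0.13. Agt, angiotensinogen, had -1.75 ± 0.19 (0.0174), Hk2, a hexokinase, -1.53 ± 0.18 (0.0255), and Angptl4, an inhibitor of lipoprotein lipase, -1.27 ± 0.17 (0.0328). In these 4 the uninduced difference was upward, and the induced one did not pass the calling rule.

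Olr1, a scavenger receptor for oxidized lipoprotein, had -4.70 ± 0.34 (0.00316): 1.29 and 0.528 CPM flat and 38.7 and 34.6 CPM in spheroids without induction and 38.2 and 37.7 CPM flat and 53.5 and 56.2 CPM in spheroids with it. Kcnk3, a potassium channel, had -2.19 ± 0.17 (0.00469), with uninduced levels of 10.3 and 11.4 CPM flat and 56.2 and 55.7 CPM in spheroids and induced levels of 69.5 and 62.1 CPM flat and 78.2 and 71.5 CPM in spheroids. Hp had -3.50 ± 0.43 (0.0255) and Saa3 -2.01 ± 0.20 (0.0131), both higher in spheroids in either state. Egln3 had -1.63 ± 0.24 (0.0417). Pcx, pyruvate carboxylase, had -1.27 ± 0.18 (0.0379) and Timp1 -0.93 ± 0.14 (0.0477).

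In the upward direction, Ifi27l2a had 2.30 ± 0.25 (0.0174), being lower in spheroids in both states. Nrg1, neuregulin 1, had 1.77 ± 0.20 (0.022), with 37 and 35.6 CPM flat and 21.1 and 20.4 CPM in spheroids without induction and 8.04 and 9.73 CPM flat and 17.9 and 16.9 CPM in spheroids with it. Eda2r had 1.64 ± 0.20 (0.0255) and Mmp13 1.53 ± 0.20 (0.0299). Tagln, the actin-binding protein transgelin, had 2.06 ± 0.31 (0.0483), with 67.9% of its exon bases shared with genes on the opposite strand.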

How the results depend on the processing

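The number of genes called was 771 (353 higher, 418 lower). It was 1408 (734 and 674) with DESeq2, 2139 (1213 and 926) with no filter on low counts, 1892 (1059 and 833) with all 8 libraries in the fit and 1222 (710 higher) with limma-voom and group weights. It ranged from 58 to 2992 when 1 library was left out (19 to 1545 higher, 39 to 1587 lower), and the 8-library fit gave 2875 (1345 and 1530) with 3D induced replicate 1 omitted and 2447 (1490 and 957) with replicate 2 omitted. Calls higher were 45.8% of all calls, 56.0% with all 8 libraries, 56.7% with no filter, 58.1% with group weights and 61.5% without 3D induced replicate 2. None of the 771 was called in the opposite direction under any of these. Oas2, Ifi44, Iigp1 and Ddx60, which are not among them, were called lower without 3D induced replicate 1 and higher without replicate 2. The interaction count of 58 (6 higher, 52 lower) was 163 (24 and 139) with DESeq2, 209 (45 and 164) with no filter, 107 (99 lower) with group weights and 1 to 691 with 1 library left out (0 to 374 higher, 1 to 418 lower). At 4-fold in place of 2-fold, spheroid replicate 1 was higher in 604 and lower in 217 genes, and replicate 2 in 551 and 440. The cause was not tested.

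Replicate numbers did not pair the induced samples: replicate differences in flat and spheroid libraries correlated at -0.0062 over genes. Those of induced and uninduced spheroids correlated at 0.206, and what the interaction owes to this was not tested. With the replicate number as a block, 1714 genes were called (887 higher, 827 lower), and 2 were higher in the interaction. Under the block Oas2 stood at -0.84, Ifi44 at -0.84, Iigp1 at -0.60 and Ddx60 at -0.16.

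Of the 146 named calls, 146 held with RLE size factors, DESeq2, either filter, all 8 libraries or the other scaling, 139 with group weights and 143 with the block. Signs turned only in genes that were not called. With group weights Oas2 stood at -1.57, Ifi44 at -1.12, Iigp1 at -0.79 and Ddx60 at -0.37. Without 3D induced replicate 1 they stood at -4.34, -3.05, -2.48 and -2.16, and in the 8-library fit at -4.34, -3.05, -2.48 and -2.15. Without 3D induced replicate 2, in the 4-library and the 8-library fit, Mki67 stood at 0.62 and 0.62, Cdkn1a at -0.071 and -0.071, Isg15 at 0.13 and 0.13, Plcxd2 at -0.21 and -0.21, Prkar1b at 0.59 and 0.60, Sis at 0.38 and 0.38, and Tlcd2 at -0.67 and -0.67. Mki67 stood at 0.0098 without 2D induced replicate 1. With 3D induced replicate 1 left out, Mki67 stood at -1.47, Cdkn1a at 0.91, Isg15 at -2.17, Plcxd2 at 3.23, Prkar1b at -3.61, Sis at -4.47 and Tlcd2 at 2.95, and with replicate 2 left out Oas2 stood at 1.37, Ifi44 at 1.03, Iigp1 at 1.1 and Ddx60 at 1.53. Levels under 1 CPM rest on few counts.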

Other observations

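The genes farthest apart between the 2 induced spheroid libraries were these, given as values. Higher in spheroid replicate 2 were Hbegf, an EGF family ligand (0.715 and 0.98 CPM in the flat and 3.65 and 37.3 CPM in the spheroid libraries), and the stress factor Atf3 (1.52 and 0.91 CPM flat and 4.26 and 36.2 CPM in spheroids). So were Gprc5a, an orphan receptor (1.52 and 1.33 CPM flat and 1.83 and 18.1 CPM in spheroids), Plcxd2 (4.47 and 3.57 CPM flat and 3.45 and 37.4 CPM in spheroids), Tlcd2 (2.23 and 2.1 CPM flat and 1.35 and 16.7 CPM in spheroids) and Cpm, carboxypeptidase M (1.43 and 2.73 CPM flat and 3.45 and 32.9 CPM in spheroids). Higher in spheroid replicate 1, beside Oas2, Ifi44 and Iigp1, were the RNA helicase Ddx60 (9.11 and 5.74 CPM flat and 21.1 and 1.64 CPM in spheroids), Sis, sucrase-isomaltase (5.09 and 5.6 CPM flat and 6.97 and 0.234 CPM in spheroids), and Prkar1b, a regulatory subunit of protein kinase A (10.4 and 11.3 CPM flat and 16.4 and 0.878 CPM in spheroids). None of these 12 was called between spheroid and flat culture by edgeR, at adjusted p-values of 0.0856 for Hbegf, 0.0888 for Atf3 and above 0.1 for the others.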
